A study of Mus musculus with 4 samples.

Results

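The genes of the insulin-like growth factor (IGF) system were followed in satellite cells, which are the stem cells that repair skeletal muscle, with and without the calcitonin receptor gene Calcr. The members were 10 genes: the ligands Igf1 and Igf2, the receptors Igf1r and Igf2r, and the binding proteins Igfbp2 to Igfbp7. They were found as all probe sets whose platform annotation gives 1 of these symbols, which were 28 of 45101 probe sets on the array and 10 of 18193 named genes. The family was chosen by its symbols but selected on earlier results of these arrays, namely its signals in control against cKO and on replicate 1 against 2, so values of the members between genotypes and between replicate numbers are given as a description and carry no test. Both groups came from mice aged 10 weeks with a tamoxifen-dependent Cre (CreERT2) driven from Pax7, which is active in satellite cells, and a Rosa-YFP reporter on both alleles. Both were given tamoxifen, and YFP+ cells were sorted 2 weeks later without culture. Control mice were Calcr+/+, and the conditional knockout (Calcr-cKO, here cKO) mice were Calcr flox/flox. The controls therefore carried Cre, reporter and tamoxifen but no floxed Calcr allele. Each group held 2 samples that the titles call biological replicates, numbered 1 and 2, on 1 array each. The sources used here do not give how many mice a sample came from or what samples of the same number share.

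IGF1 and IGF2 are small secreted peptides related to insulin. Both signal through IGF1R, a receptor tyrosine kinase that acts through insulin receptor substrates on phosphoinositide 3-kinase and AKT, while IGF2R, the cation-independent mannose 6-phosphate receptor, takes up IGF2 for breakdown in lysosomes and has no kinase. The binding proteins hold IGFs outside the cell and limit or prolong their access to IGF1R. In muscle, IGF1 supports growth and repair, and IGF2 is made by differentiating myoblasts.

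Values were MAS5 signals, linear intensities of which each probe set has 1 per array, and differences were taken on log2(signal + 1). Median signals of the 4 arrays ran from 57.9 to 70.4. Calcr, the targeted gene, read 1268 and 1424 on the control arrays and 568 and 684 on the cKO arrays, so both cKO arrays were lower (2.15-fold). Whether its probe set lies in the deleted part is not known here. The satellite cell markers were bright on all 4 arrays, with Pax7 at 2170 to 3647 and Vcam1 at 4006 to 4861. The arrays numbered 1 stood apart from those numbered 2: all 16 endothelial markers were higher on both arrays numbered 1 with no overlap, at a median of 10.6-fold, and so were 9 of 10 pericyte and smooth muscle markers. Summed endothelial signal was 11046 and 10097 on control 1 and cKO 1, against 1359 and 1536 on control 2 and cKO 2. The summed level of the 11 leukocyte markers was 1121 and 1994 in control and 1402 and 521 in cKO, of the 7 muscle fibre markers 2741 and 1188 against 1335 and 2097, and of the 9 measured fibro-adipogenic markers 14653 and 19872 against 16896 and 19127 (replicate 1, then 2). No marker was at 0. In bulk RNA of this kind, fewer cells of a type and less RNA per cell cannot be told apart.

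Of the 9 genes that were bright enough to test, Igfbp4 had the largest difference between genotypes, with all 6 of its probe sets lower in cKO cells, and Igfbp7 was the one with the largest difference between replicate numbers. Igfbp2 was dim, and its probe set missed the filter on low values, a mean signal of at least 63.9, which 27 of the 28 probe sets and 9 of the 10 genes passed. The limma fit over all 22519 probe sets that passed called 0 between genotypes (0% of those tested) at an adjusted p under 0.05, members included, and 163 (0.724%) had an unadjusted p under 0.05. This fit held no term for replicate number, so differences between the numbers counted as spread within each genotype. The targeted gene Calcr was itself not called (2.15-fold lower in cKO, limma, adjusted p = 0.99999). The 0 calls therefore do not show that the genotypes were alike. Of the 27 probe sets of the family, 8 were lower on both cKO arrays than on both control arrays, against 13.5% of all tested probe sets. These were all 6 of Igfbp4, 1 of Igfbp6 and 1 of Igfbp7. Higher on both cKO arrays was 1, against 7.87% of all tested. At least 2-fold lower without overlap were 4 of the 27, all of Igfbp4, against 0.426% of all tested, and 0 were as much higher (0.12% of all tested). The choice of the family used this comparison, so nothing is read from these counts. In 16 of 27 the cKO minus control difference had opposite signs between the arrays numbered 1 and those numbered 2, a state shared by 58.2% of all tested probe sets. The median difference over the leading (brightest) probe sets of the 9 genes was 0.07 on the log2 scale, beside -0.04 over all 10140 genes tested.

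**Figure D1:**
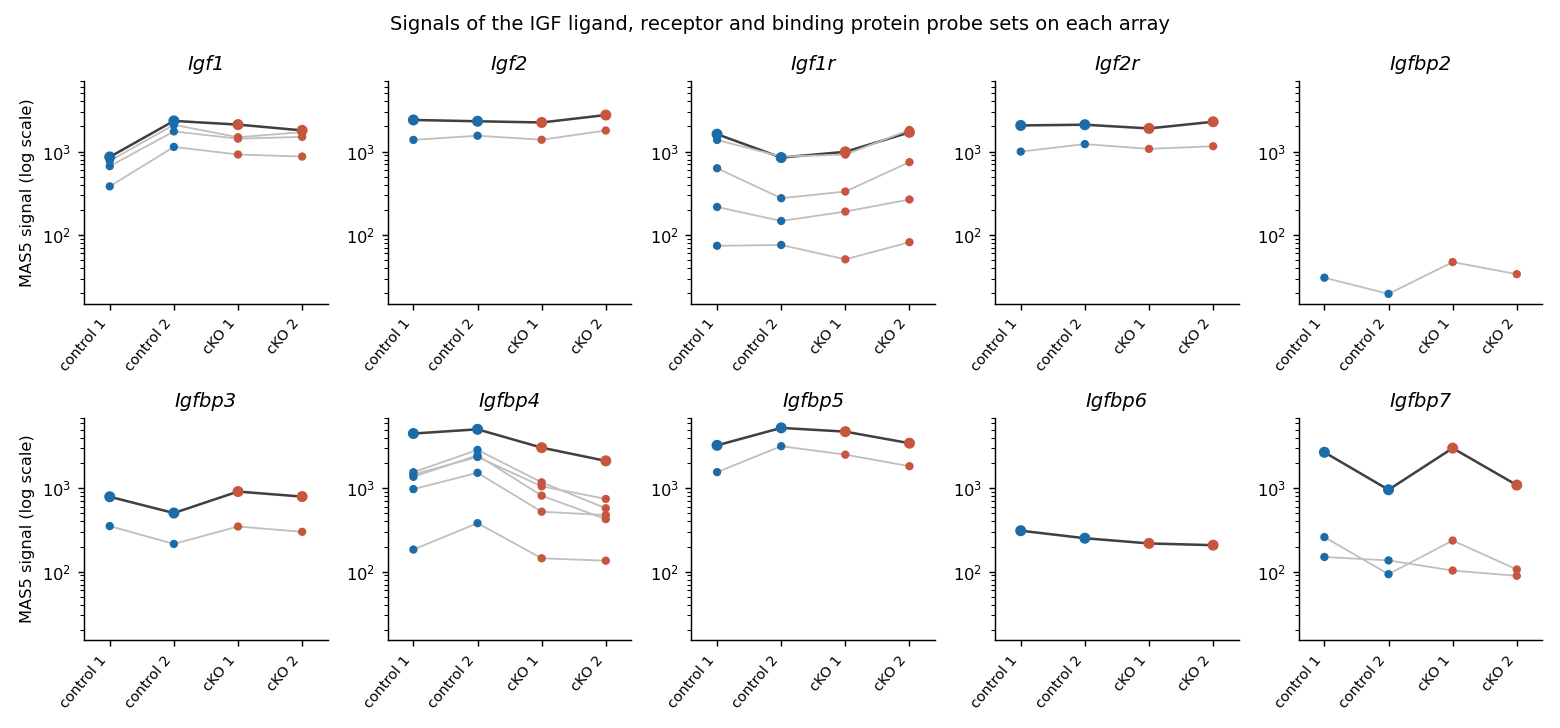
MAS5 signals (vertical axis, log scale) of all 28 probe sets of the 10 genes on the 4 arrays (horizontal axis, blue control, red cKO). Each line joins 1 probe set across arrays, the dark line is the brightest that passed the filter; Igfbp4 lines lie lower on both cKO arrays, Igfbp7's upper line is high on the arrays numbered 1, and Igfbp2 lies at 19.7 to 47.3.

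The DNA upstream of 3 members is shown, and the 3 were picked on their values on these arrays. Among the tested members, Igfbp4 had the largest difference between genotypes and Igfbp7 the largest between replicate numbers. Igf2r was among the steadiest. Each run holds the 250 bases before the annotated start in RefSeq on GRCm38.p6, written 5′ to 3′ on the gene's strand. Igfbp4 is at chr11:99040994-99041243 (plus strand), Igfbp7 at chr5:77408046-77408295 (minus strand) and Igf2r at chr17:12769707-12769956 (minus strand). Capitals mark the TATA box TATAAA (gene strand only), the GC box GGGCGG, the E-box CACGTG and TGACG, the short form of the cAMP response element, the last 3 on either strand.
Igfbp4: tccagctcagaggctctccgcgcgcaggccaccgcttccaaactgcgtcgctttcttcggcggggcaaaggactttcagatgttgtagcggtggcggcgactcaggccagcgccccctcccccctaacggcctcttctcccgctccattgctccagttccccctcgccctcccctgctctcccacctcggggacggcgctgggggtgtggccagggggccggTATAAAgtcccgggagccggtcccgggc
Igfbp7: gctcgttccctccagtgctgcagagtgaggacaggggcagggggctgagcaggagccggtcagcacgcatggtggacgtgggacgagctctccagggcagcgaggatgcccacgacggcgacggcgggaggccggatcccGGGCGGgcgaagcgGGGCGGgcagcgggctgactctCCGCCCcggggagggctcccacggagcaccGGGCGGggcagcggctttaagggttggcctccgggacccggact
Igf2r: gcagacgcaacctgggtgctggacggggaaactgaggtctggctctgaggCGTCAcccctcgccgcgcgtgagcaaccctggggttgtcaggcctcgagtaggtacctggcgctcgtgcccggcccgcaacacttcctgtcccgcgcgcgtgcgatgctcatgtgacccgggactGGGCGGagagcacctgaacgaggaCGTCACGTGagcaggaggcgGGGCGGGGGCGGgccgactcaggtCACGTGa
All 10 members had an entry in the RefSeq table, with 14 windows in all, since Igf2 has 4 annotated starts and Igfbp2 has 2. TATAAA was found in 1 of the 14 windows, that of Igfbp4 at 28 bases before the start, and in 7.59% of all 32851 windows of this length. GC boxes were in 6 of the 14 and in 32.7% of all windows. The Igfbp7 window holds 4 of them, at 110, 96, 74 and 44 bases before the start. The full cAMP response element TGACGTCA was in 0 of the 14 windows and in 1.55% of all. Its short form, which the full one contains, was in windows of Igf2 and Igf2r (17.8% of all windows), and the E-box in those of Igf2r and Igfbp2 (6.02%). In the Igf2r window 1 short form at 51 bases before the start overlaps an E-box at 48 bases. The letters GGAATG, the core of TEAD factor sites, were in 4 of the 14 windows, those of Igf2 and Igfbp5, and in 12.6% of all. Only these exact letters were searched, so variants of a motif were not counted. A match is a description of the letters, and nothing about binding follows from it.

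The ligand Igf1 was read by 4 probe sets, and all 4 were lowest on control 1 and highest on control 2. Its brightest probe set (1452014_a_at) read 862 and 2329 on control arrays 1 and 2 and 2103 and 1793 on cKO arrays 1 and 2. The cKO values thus lay inside the range of the control values, and the groups overlapped on every Igf1 probe set. The mean was 1595 ± 1038 in control and 1948 ± 219 in cKO (SD, n = 2), a log2 difference of 0.45 with a limma SE of 0.43. Between the arrays numbered 1 the difference was 1.29, and between those numbered 2 it was -0.38. Over the 4 probe sets these ranges were 0.94 to 1.29 and -0.38 to -0.22. Without control replicate 1 the log2 difference of the brightest probe set turned to -0.26. The summed fibro-adipogenic marker level was also lowest on control 1, but 2 of its 9 measured markers, the collagen genes Col1a1 and Col3a1, were lowest there. The list was split, with 5 of the 9 higher on control 1 than on control 2, among them Dcn (2935 and 2432 in control, 2313 and 3848 in cKO). The part of those cells in the Igf1 values was not tested.

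Igf2, the imprinted second ligand, varied little. Its brightest probe set (1415931_at) read 2390 and 2306 in control and 2230 and 2739 in cKO, and the other (1448152_at) 1379 and 1548 against 1385 and 1787. Both were highest on cKO 2, and both overlapped between groups. The log2 differences were 0.07 (SE 0.18) and 0.11 (SE 0.23). The ratio of the highest to the lowest array was 1.23 and 1.30.

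The receptor gene Igf1r had 5 probe sets. Its brightest (1428967_at) read 1615 and 847 in control and 993 and 1698 in cKO. High signals were thus on control 1 and cKO 2 and low ones on control 2 and cKO 1. The order cKO 2, control 1, cKO 1, control 2 was shared by 4 of the 5 probe sets. On the fifth and dimmest (1446303_at), at 74.2 and 75.9 against 51.1 and 81.9, cKO 2 was also highest but cKO 1 was lowest. Pooled over the numbers the log2 difference of the brightest was 0.15 (SE 0.38), and it was -0.70 between the arrays numbered 1, while between those numbered 2 the cKO signal was 2.01-fold higher. All 5 probe sets had opposite signs between the numbers, from -0.93 to -0.18 and from 0.11 to 1.43. With 1 array of each genotype and number, a difference of these differences has no test. Muscle fibre markers were likewise brightest in sum on control 1 and cKO 2 (2741 and 2097, against 1188 and 1335), and their part in the Igf1r values was not tested.

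Igf2r was among the steadiest members. It read 2055 and 2097 in control and 1893 and 2274 in cKO on the brighter probe set (1424111_at), and 999 and 1228 against 1076 and 1159 on the other (1424112_at). The cKO arrays enclosed the control arrays on the first, and the control arrays enclosed the cKO arrays on the second. The log2 differences were -0.00102 (SE 0.19) and 0.01 (SE 0.24), and the sign of the first turned with the scaling: it was 0.09 with arrays centred on their median and 0.04 after quantile normalization. A further probe set names Igf2r together with another gene and was not used.

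Igfbp4 encodes a binding protein that mostly holds back IGF action and that the protease pregnancy-associated plasma protein A cuts to release the ligand. Its brightest probe set (1437405_a_at) read 4526 and 5084 in control and 3065 and 2129 in cKO. Neither cKO array reached a control array. The difference was 1.88-fold, or -0.91 on the log2 scale with an SE of 0.20. The other 5 probe sets repeated this order. The signals of 1423756_s_at were 1555 and 2880 in control against 1177 and 576 in cKO. Those of 1437406_x_at were 1371 and 2483 against 815 and 427, the largest difference of the 6 at 3.12-fold. The signals of 1421992_a_at were 976 and 1531 against 523 and 476. The remaining pair, 1423757_x_at and 1421991_a_at, differed by 2.10-fold and 1.89-fold. In all 6 the order from high to low was control 2, control 1, cKO 1, cKO 2. The probe sets are annotated to 1 gene on the same 4 arrays and are not 6 replicates. All 6 carry a suffix letter (a, s or x) in their names, and which transcripts their probes match was not checked.

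The size of the Igfbp4 difference was not the same in both numbers. Between the arrays numbered 1, Igfbp4 was 1.48-fold lower in cKO on its brightest probe set, and between those numbered 2 it was 2.39-fold lower. Over the 6 probe sets the log2 differences ran from -0.90 to -0.35 between the arrays numbered 1 and from -2.54 to -1.26 between those numbered 2. Leaving out each array in turn gave -1.17 to -0.65 for the brightest probe set. The lowest of these came without cKO 1 and the highest without cKO 2. Scaling mattered less, with -0.85 after quantile normalization and -0.82 with arrays centred. Leukocyte markers summed to 1121 and 1402 on control 1 and cKO 1, so between the arrays numbered 1 they ran the other way from Igfbp4. Between the arrays numbered 2 they summed to 1994 and 521, the same way as Igfbp4. Of these 11 markers 4 passed the filter. Cd74, H2-Aa and Lyz2 were lower on cKO 2 than on control 2, while Cd68 ran the other way (195 on control 2, 282 on cKO 2). The satellite cell markers summed to 24164 and 31163 in control and 23593 and 25459 in cKO. This sum was highest on control 2, as was Igfbp4, but next highest on cKO 2, where Igfbp4 was lowest. The satellite cell list includes the targeted gene Calcr (1268 and 1424 in control, 568 and 684 in cKO), which adds to the control sums. The part of these cell types in the Igfbp4 values was not tested.

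**Figure D2:**
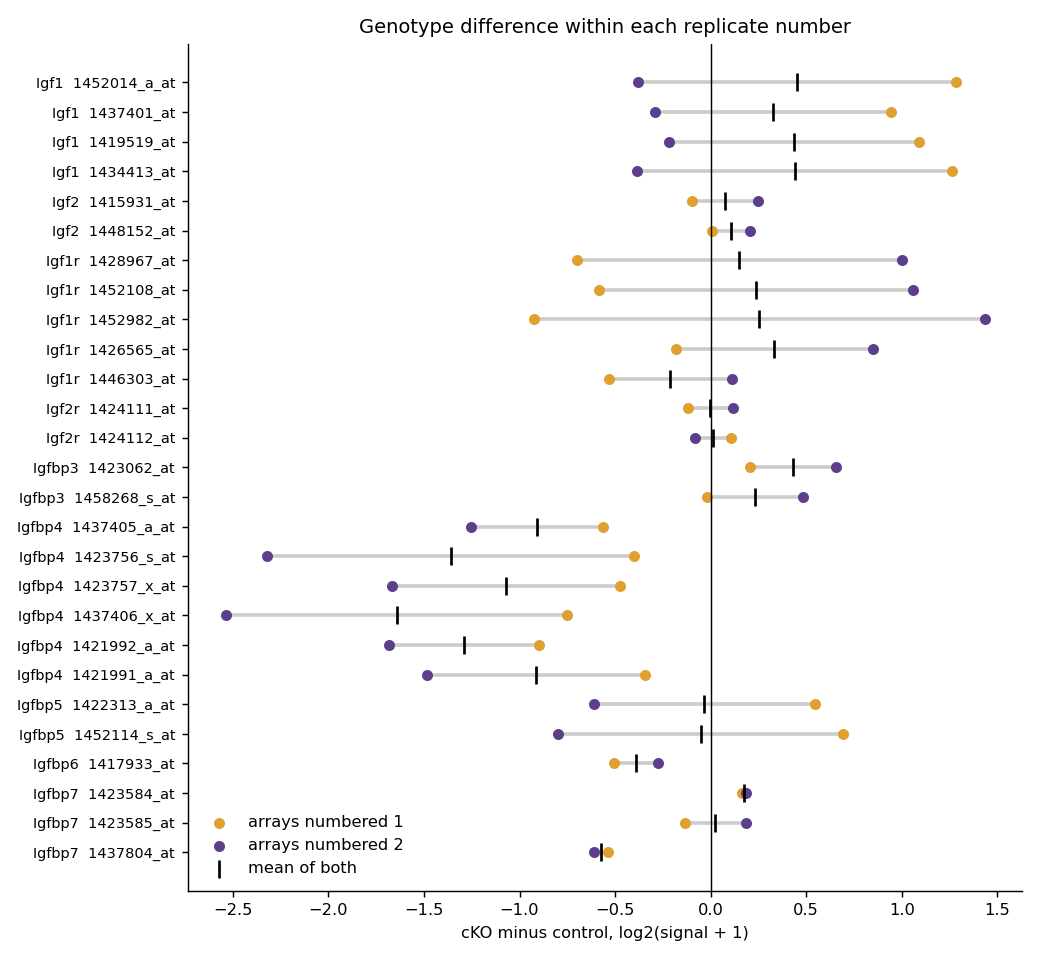
Differences of cKO minus control on the log2(signal + 1) scale (horizontal axis) for the 27 probe sets that passed the filter (rows), between the arrays numbered 1 (orange), those numbered 2 (purple) and as the mean of both (black tick). All 6 rows of Igfbp4 lie below 0 at both numbers, while the rows of Igf1, Igf1r and Igfbp5 lie on both sides of 0.

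The other binding proteins gave smaller or less uniform differences. Igfbp3, which encodes the main IGF carrier of blood, read 791 and 504 in control, then 912 and 794 in cKO (brightest probe set, 1423062_at). Both cKO arrays lay above both control arrays, cKO 2 by a narrow margin over control 1. This was the single probe set of the family that passed the filter and was higher without overlap. Its log2 difference was 0.43 (SE 0.31). The second probe set (1458268_s_at), at 352 and 215 against 348 and 301, overlapped. Igfbp3 was lowest on control 2 on both probe sets, and without that array the log2 difference of the brightest was 0.11.

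Igfbp5, a binding protein made by muscle precursor cells, overlapped between groups. It read 3268 and 5288 in control and 4768 and 3467 in cKO (1422313_a_at), and 1561 and 3192 against 2528 and 1838 on the other probe set (1452114_s_at). Both probe sets had the order control 2, cKO 1, cKO 2, control 1. The log2 difference of the brighter was -0.03 (SE 0.25), with 0.54 between the arrays numbered 1 and -0.61 between those numbered 2. The sign of the pooled value turned to 0.06 with arrays centred and to 0.02 after quantile normalization. Igfbp2 is the neighbour of Igfbp5 in the RefSeq gene order of GRCm38.p6. It was dim, at 30.7 and 19.7 in control and 47.3 and 33.9 in cKO. Its cKO arrays lay above its control arrays, but it was below the filter on every array and no fold is given for it.

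Igfbp6 encodes the binding protein that prefers IGF2. It read 310 and 252 in control and 218 and 208 in cKO on its only probe set (1417933_at). Both cKO arrays were below both control arrays by a mean of 1.31-fold, a log2 difference of -0.39 with an SE of 0.33. It was -0.30 with arrays centred on their median.

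Igfbp7, which encodes a related protein that binds IGFs weakly and is abundant in blood vessels, differed by replicate number rather than by genotype. Its brightest probe set (1423584_at) read 2697 on control 1 and 3023 on cKO 1, against 959 on control 2 and 1091 on cKO 2. Both arrays numbered 1 were above both numbered 2, by 2.79-fold. The log2 difference between the numbers was 1.49 in control and 1.47 in cKO, whereas cKO and control differed by 0.18 (SE 0.58) and overlapped. The second probe set (1423585_at) read 260 and 236 on the arrays numbered 1 and 93.4 and 106 on those numbered 2, a 2.47-fold difference. The third (1437804_at) did not share it. It read 150 and 136 in control and 103 and 89.2 in cKO, so that it was lower in both cKO arrays (log2 difference -0.57) and differed between the numbers by only 0.17. The probe sets of Igfbp7 thus disagree on both comparisons, and why was not tested.

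Between replicate numbers, the fit called 521 of 22519 probe sets (2.31%), 477 of them higher on replicate 1 (2.12%). Among the 27 probe sets of the family it marked 1, the brightest of Igfbp7, and it marked 5 when control 2 was left out, 9 when cKO 2 was and 0 with the mean over the probe sets of a gene. The choice of the family used this comparison too, so these counts are a description and nothing is read from them. At least 2-fold higher on replicate 1 without overlap were 2 of the 27, both of Igfbp7, against 4.73% of all tested, and 0 were as much lower (1%). Without overlap at any size, 3 were higher on replicate 1 (26.2% of all tested), both of these and the second probe set of Igfbp3, and 6 were lower (18.5% of all tested). The 6 were 1 of Igf1r, 1 of Igf2, both of Igf2r and 2 of Igf1, with log2 differences from -0.82 to -0.15. Centring arrays on their median moved the median of all genes between the numbers from -0.03 to -0.21, and on that scale the Igfbp7 difference was 1.29 and that of Igfbp3 0.24, while Igf1r, Igfbp4 and Igfbp6 turned from 0.08, 0.18 and 0.18 to -0.11, -0.00726 and -0.00214. For Igfbp7, leaving out each array in turn gave 1.39 to 1.57, and the mean over its 3 probe sets lowered the difference to 0.99. The endothelial and pericyte marker lists differed in the same direction by medians of 3.41 and 2.20 on the log2 scale, which is more than Igfbp7 did; their part in the Igfbp7 values was not tested.

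**Figure D3:**
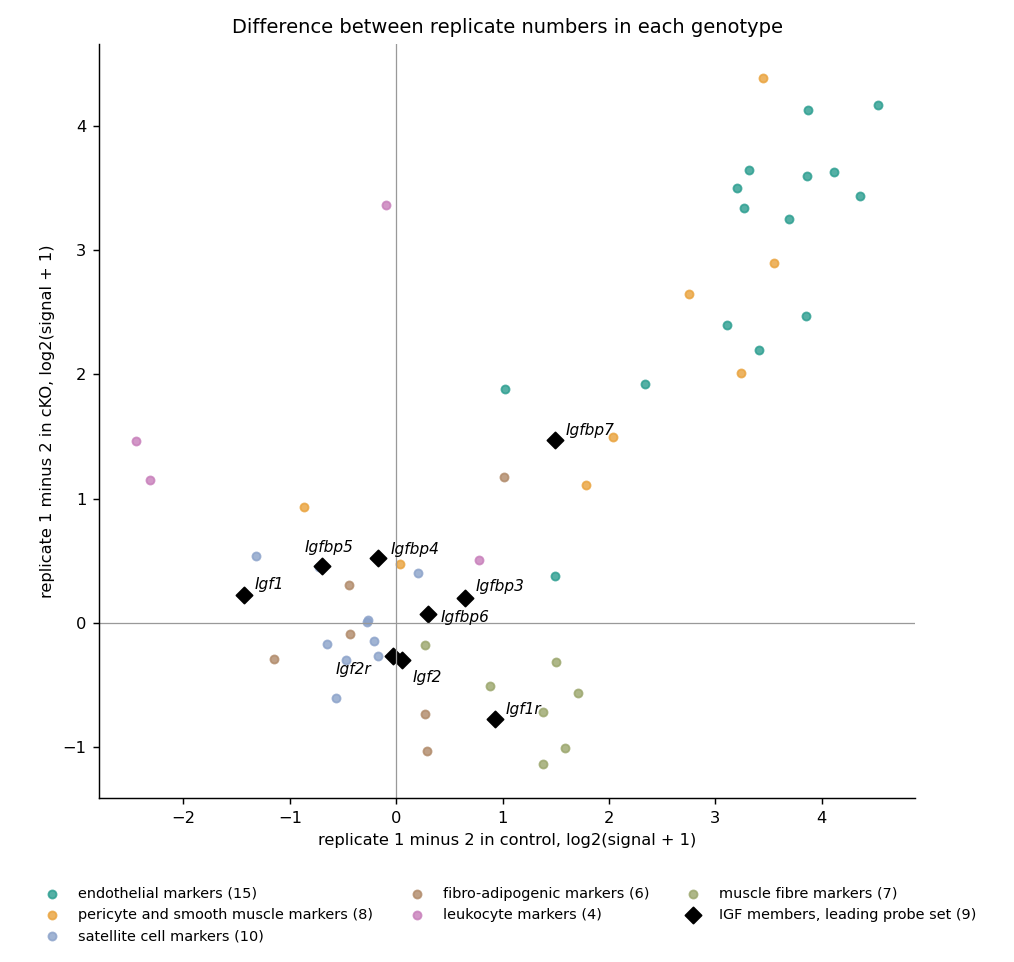
Difference of replicate 1 minus replicate 2 on the log2(signal + 1) scale in control (horizontal axis) and in cKO (vertical axis) for the leading probe sets of the 9 members that passed the filter (black diamonds) and for the cell type markers that passed it (coloured points). Igfbp7, at 1.49 and 1.47, lies on the side of the endothelial and pericyte markers, and Igf1r, at 0.93 and -0.77, is positive in control and negative in cKO.

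Taking the leading probe set of each gene, Igfbp7 and Igf1 had the largest range over the 4 arrays (dimmer probe sets of Igfbp4 ranged further), and for both the genes with the most similar profile were looked up among 2224 others with a range of at least 1 on the log2 scale. Likeness was the Euclidean distance between log2 values centred on their mean over the 4 arrays. For Igfbp7 the nearest were Zbtb46 (distance 0.131), Atp8b1, Epas1, Afap1l1 and Daam2 (0.155). Epas1, a hypoxia-inducible transcription factor gene of blood vessels, read 4214 and 4398 on the arrays numbered 1 and 1364 and 1765 on those numbered 2. For Igf1 the nearest were Sf3b5 (0.104), Zfp771, Rtl3, Dzip3 and Pdzd11 (0.171). Sf3b5, a splicing factor gene, read 202 and 548 in control and 458 and 429 in cKO. With 4 arrays, such likeness is a description.

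Other genes of the pathway were taken from a list of 53, of which 48 had a probe set with that 1 symbol and 31 passed the filter. Each is described by its leading probe set alone. Some had more that passed, such as Ptpn2 with 4 and Akt1 with 3 in all, and whether these repeat the leading one is not reported here. None of the 31 passed the limma test between genotypes at an adjusted p under 0.05, and 1 had an unadjusted p under 0.05, against 0.72% of all tested genes. In cKO 11 read higher and 20 lower. Without overlap of the arrays 3 were higher and 7 lower, where 8.53% and 12.1% of all tested genes were. Their median log2 difference was -0.09, beside -0.04 over all genes.

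Among the receptors and adaptors, Insr, the insulin receptor gene, read 390 and 239 in control and 208 and 396 in cKO, with high signals on control 1 and cKO 2 as for Igf1r. The docking protein genes Irs1 and Irs2, which pass the signal from both receptors on, read 180 and 384 against 345 and 525, and 844 and 1345 against 1114 and 1517. Both were lower on replicate 1 in each genotype and overlapped between genotypes, with log2 differences of 0.69 (SE 0.45) and 0.29 (SE 0.30). Gab1, a docking protein gene, was higher on both cKO arrays at 0.26 (SE 0.26). Grb10, the gene of an adaptor that restrains both receptors, read 3681 and 4664 against 3950 and 3732. Gigyf1, which encodes a partner of Grb10, differed by 0.56 (SE 0.52) and overlapped.

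Further along the pathway, Akt1, a kinase gene, read 344 and 439 in control and 307 and 202 in cKO, a log2 difference of -0.64 (SE 0.36) without overlap. Akt2 read 893 and 1009 against 839 and 824, also without overlap (-0.19, SE 0.25). Pik3r2, which encodes a regulatory subunit of phosphoinositide 3-kinase, was lower on both cKO arrays (-0.46, SE 0.40). Ptpn2, a tyrosine phosphatase gene, read 1971 and 2257 against 1385 and 1371. It was 1.53-fold lower, with an SE of 0.20 on a log2 difference of -0.61 and with a limma adjusted p = 0.99999. Of the genes that act on binding proteins outside the cell, Adam12, a metalloprotease gene, was higher on both cKO arrays (764 and 1220 against 1348 and 1260). Stc2, whose product inhibits the protease that cuts IGFBP4, was lower on both (107 and 141 against 107 and 55.2), and control 1 and cKO 1 were all but equal. Pappa, the gene of that protease, was below the filter at 24.5 to 29.6.

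**Figure D4:**
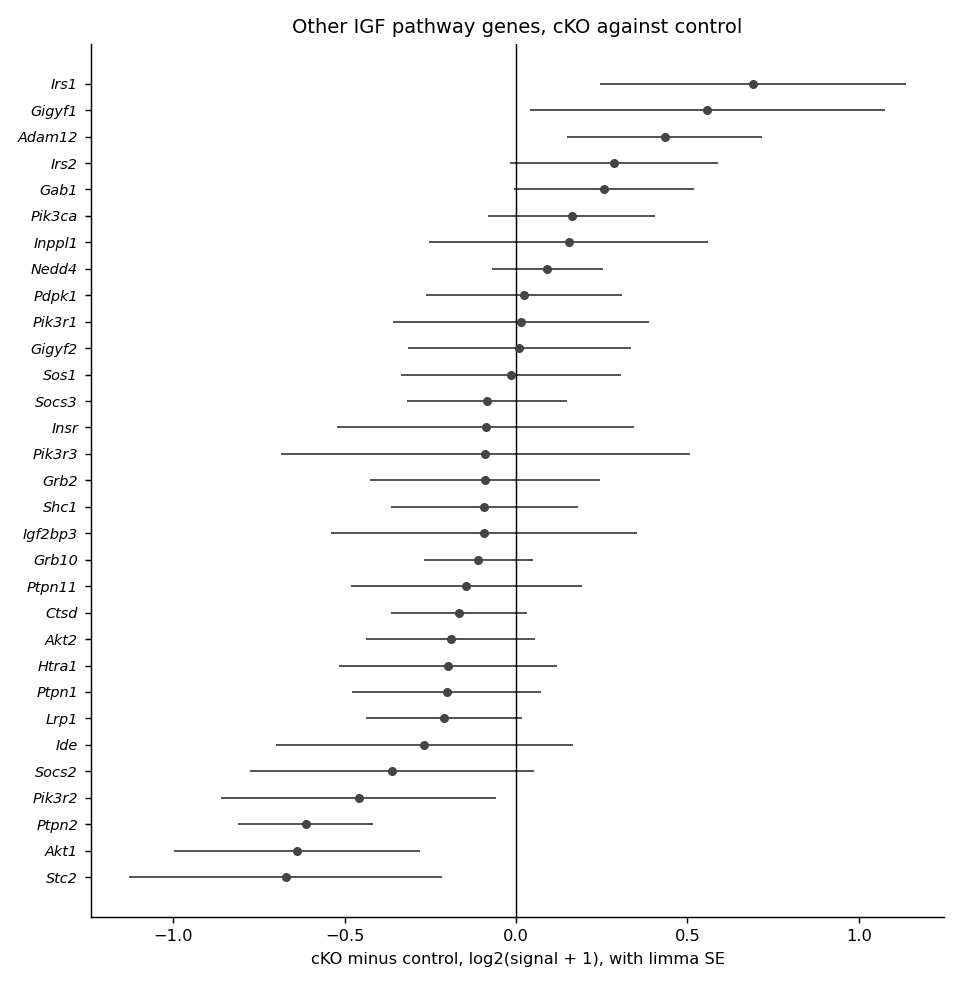
Difference of cKO minus control on the log2(signal + 1) scale (horizontal axis) with its limma SE (bars) for the 31 other pathway genes that passed the filter (rows, leading probe set). The values run from -0.67 for Stc2 to 0.69 for Irs1, and 0 genes passed the test.

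Between replicate numbers, 1 of the 31 passed, where 2.82% of all tested genes did. Pik3r3, which encodes a regulatory subunit of phosphoinositide 3-kinase, read 388 and 465 on the arrays numbered 1 and 196 and 145 on those numbered 2 (limma, adjusted p = 0.0457). Leaving out either array numbered 1 ended that call and leaving out either numbered 2 kept it, and 6 of the 10 settings that used all arrays also ended it. Lower on replicate 1 without passing were Socs2 and Socs3, genes of suppressors of cytokine signalling, at log2 differences of -0.90 and -0.50 (limma, adjusted p = 0.111 and adjusted p = 0.103), and Irs2 at -0.56. Both Socs genes passed with arrays centred on their median. Ptpn11, Pdpk1 and Stc2 were 0.37, 0.16 and 0.27 higher on replicate 1 with overlap, and Gigyf1 differed by -0.99 (lower on replicate 1). In all 11 of the 31 read higher on replicate 1 and 20 lower, 1 and 7 of them without overlap, where 21% and 22.4% of all tested genes were, with a median of -0.08 beside -0.03 over all genes.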

How the data were processed

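Total RNA of sorted cells was biotin-labelled and hybridised to 1 array per sample, per the labels' protocols. The deposited intensity values are linear MAS5 signals, per the submitters' processing notes (their scaling target is not stated there). Probe sets were named by GEO's platform annotation (34945 of 45101 have 1 symbol). Values were analysed as log2(signal + 1), so fold changes understate changes of low signals. Probe sets with a mean log2 value at or above the median of all non-control probe sets were kept (22519), and the brightest of a gene led. Genotypes and replicate numbers were each compared with limma 3.58.1 in R 4.3.3 (lmFit, eBayes with an intensity trend) over all kept probe sets with Benjamini-Hochberg adjustment at 0.05. P-values measure the spread between these samples only, and the number of arrays, 2 a group, limits precision: an exact permutation test could not go below 0.333. Steps were tested on simulated data with noise that was independent between arrays. The simulated genotype comparison lacked the differences between replicate numbers seen here, so it does not show how the fit performs with them. Named pathway genes were a fixed set of 9 and up to 4 per direction and comparison with the smallest limma p. H19, 1 of the 9, had no probe set with that 1 symbol and so was not analysed. The members, lists and tests were chosen with earlier results of these data known. Alternatives were other normalizations, pseudocount, filters, moderation, probe set choices, blocks and leaving out each array. Promoter windows came from RefSeq (GRCm38.p6).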

Additional observations from a re-analysis of the deposited data

How the results depend on the processing

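Between genotypes the 0 calls held under 7 alternatives that kept all arrays; a replicate block gave 5, none of them a member, leaving out 1 array gave 0 to 5 (1 without control replicate 1 and 5 without cKO replicate 1), and the rule of a 2-fold difference without overlap gave 123, among them 4 probe sets of Igfbp4. What samples of the same number share is not stated, and 2 pairs do not settle a pairing: over kept probe sets the differences of replicate 1 minus 2 in control and in cKO correlated at 0.43 (across probe sets, which are not replicates). The pathway list had 0 calls in every setting run between genotypes. Igfbp4 kept its sign in 11 of 11 alternatives (-1.20 to -0.65), but several of these could not have turned it. The genotypes did not overlap on any of its probe sets, so leaving out 1 array cannot change the sign. With no filter, the 75th percentile filter or a replicate block, the value was the main one, -0.91. The count is therefore a description and is not read as robustness. Igfbp4 and Igfbp5 have no probe set without a suffix letter. The median over members, 0.07, was -0.0742 to 0.13 when 1 array was left out. Between numbers the 521 calls (477 higher on replicate 1) were 541 (395 higher) with arrays centred, and became 141 with the 75th percentile filter (fewer probe sets tested), 1292 by the 2-fold rule and 252 to 1755 without 1 array. The pathway list's 1 call became 0 after quantile normalization, with no filter, with the 75th percentile filter, with no intensity trend and with genotype as a block, 2 with arrays centred or only unsuffixed probe sets, and 0 to 2 without 1 array. The median over members, 0.08, was -0.11 with arrays centred, -0.0904 with the mean over probe sets and -0.0683 to 0.32 without 1 array; causes of these changes were not tested.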

Other observations

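Several listed genes of IGF carriage and its proteases were below the filter on low values. Igfals, the gene of the acid-labile subunit that stabilises IGF complexes in blood, read 23.7 to 27.7 on the 4 arrays. Igfbp1, a binding protein gene best known from liver and the neighbour of Igfbp3 in the RefSeq gene order, read 22.1 and 7.37 in control and 2.46 and 2.80 in cKO. Stc1, a stanniocalcin gene, read 52.1 and 80.9 on control 1 and cKO 1 and 4.58 and 23.5 on control 2 and cKO 2. These signals are dim, and no fold is given for them.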
